A study of Mus musculus with 4 samples.

Results

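Heat shock and chaperone genes were described here as a set of 10 genes: *Hspa1a*, *Hspa1b*, *Dnajb1*, *Hsph1*, *Hspb1*, *Hsp90aa1*, *Hspa8*, *Hspa2*, *Hspd1* and *Hspe1*. They were chosen by gene symbol from the 31053 genes counted, with the level of *Hspa1a* in these libraries already known, so levels and the genotype values of interstitial cells are given as a description. The data are single-cell RNA counts of the proximal testis, which holds the rete testis (RT), the Sertoli valve (SV) and the adjacent seminiferous tubules (ST), from C57BL/6 mice at P14. There were 2 control and 2 *Sox17*-cKO libraries, each from the pooled cells of 3 pups, and the question was how loss of *Sox17* from the RT epithelium changes the RT and the SV. The records give the *Sox17*-cKO mice as SF1Cre:Sox17flox/flox and the controls as SF1Cre, whereas the methods describe the controls as Sox17flox/flox littermates, so whether the controls carried Cre is uncertain. SF1 is *Nr5a1*, whose sequences drive Cre throughout the somatic lineage of the gonad and not only in the RT. The cells of all 4 libraries were freed by enzyme digestion and the interstitial supernatant was discarded, and the interstitial cells measured are those that stayed with the tubules.

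Each library held 9388 to 13364 barcodes, of which 5174 to 6135 with 1000 to 4500 detected genes were retained, at a median of 5040 to 7872 molecules (UMIs) per cell. Libraries shared 20 to 43 barcodes per pair, at most 0.391% of the smaller library. Cells were clustered without the 10 genes and named from marker lists, which gave Sertoli-like (962 to 1719 cells per library), germ-like (1161 to 2452), interstitial-like (899 to 2574), macrophage-like (31 to 105), Leydig-like (13 to 107), RT-like (33 to 86) and endothelial-like cells (8 to 26). A further 16 mesothelial-like cells were too few to describe, and 75 to 1268 cells per library, with high mitochondrial shares, stayed unnamed. Scrublet called 0 doublets in both number 1 libraries and thus did not work there, so doublets were kept. The targeted gene checked the labels: *Sox17* in RT-like cells fell by 3.14 on the log2 scale in *Sox17*-cKO (SE 0.334; edgeR's quasi-likelihood test, Benjamini-Hochberg adjusted p = 0.0179). It was also lower in endothelial-like cells, at 508, 344, 102 and 101 CPM from 10 to 62 UMIs a library, so the difference was not seen in RT-like cells alone. Levels are given as CPM, the UMIs of a gene per 1000000 UMIs of the class, always in the order control 1, control 2, *Sox17*-cKO 1, *Sox17*-cKO 2, and an SD is over the 4 libraries. The number 1 libraries carry another Cell Ranger version than the number 2 libraries, so that number and processing cannot be told apart.

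Heat shock proteins are molecular chaperones, which bind unfolded proteins and help them to fold, and many are produced in larger amounts when cells are heated or otherwise stressed. Heat shock factors bind repeats of the short unit nGAAn, in alternating orientation, in front of such genes. *Hspa1a* and *Hspa1b* encode the inducible HSP70, *Dnajb1* an HSP40 that stimulates its ATPase and *Hsph1* an HSP110 that exchanges its nucleotide. *Hspa8* is the constitutive HSP70, *Hsp90aa1* the alpha form of cytosolic HSP90, *Hspb1* a small heat shock protein that binds actin and intermediate filament networks, and *Hspd1* and *Hspe1* are the paired chaperonin of mitochondria. *Hspa2* is an HSP70 made at high levels in meiotic germ cells and needed there for male fertility. Enzyme digestion of a tissue is itself known to raise the inducible members together with immediate early genes such as *Fos* and *Jun*.

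*Hspa1a* (ENSMUSG00000091971, GRCm38 chr17:34969190-34972156, minus strand) and *Hspa1b* (ENSMUSG00000090877, chr17:34956436-34959238, minus strand) are neighbours of a single exon each. Over the 250 bases before their start sites they were identical at 247 positions (98.8%), and over the 80 bases shown at 80. *Hspd1* (chr1:55077835-55088243, minus strand) and *Hspe1* (chr1:55088132-55091307, plus strand) lie head to head and overlap at their 5′ ends. A pair of inward or outward units, GAANNTTC or TTCNNGAA, searched on both strands and with overlaps counted, was found within 250 bases before the start in 6 of the 8 genes with a RefSeq entry, against 14.5% of 27025 genes. A further unit in alternation after such a pair, again spaced by 2 bases, was found for *Hspd1* and *Hspe1* and for 0.514% of genes. The matches of *Hspd1* and *Hspe1* are the same bases read from opposite strands, and the windows of *Hspa1a* and *Hspa1b* are near copies. These counts of genes are therefore not counts of independent stretches. *Dnajb1* and *Hspa2* had no match of these letters in the window, which says nothing of the factor. Of the stretches from 120 to 41 bases before the start, those of the inducible HSP70 genes, *Hspb1* and *Hspe1* are shown. Each held matches of the pair, as did a stretch of *Hsph1*, which is not shown. Bases are from RefSeq (GRCm38.p6, 5′ to 3′ on the strand of the gene, matches of the pair in capitals).
Hspa1a, chr17:34972197-34972276, minus strand, as in Hspa1b at chr17:34959279-34959358: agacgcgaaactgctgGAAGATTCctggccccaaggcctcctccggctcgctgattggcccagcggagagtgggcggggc
Hspb1, chr5:135887799-135887878, plus strand: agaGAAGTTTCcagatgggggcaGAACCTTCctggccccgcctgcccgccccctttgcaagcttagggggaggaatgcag
Hspe1, chr1:55088028-55088107, plus strand: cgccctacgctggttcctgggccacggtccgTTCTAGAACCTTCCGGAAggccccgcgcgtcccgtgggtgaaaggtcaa
In *Hspe1* the 3 matches overlap in a single run from 89 to 72 bases before the start, and *Hspb1* holds 2 separate matches. Near the 3′ end, where this kit reads, runs of 91 bases were shared with other genes for 60.4% of those of *Hspa8*, 35.9% of *Hspe1*, 34.8% of *Hspb1*, 18.6% of *Hsp90aa1* and 18.4% of *Hspd1*, so the counts of these genes are uncertain. No run was shared for *Hspa1a*, *Hspa1b*, *Dnajb1*, *Hsph1* or *Hspa2*, and *Hspa1a* and *Hspa1b* are therefore told apart there.

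Both inducible HSP70 genes had their highest mean in interstitial-like cells and their lowest in germ-like cells. *Hspa1a* stood at 376, 280, 98.1 and 132 CPM in interstitial-like cells, and at 4.47, 4.98, 2.73 and 3.63 CPM in germ-like cells. The means of these classes differed 56.1-fold, and no library of one class reached the other. Sertoli-like cells lay between them, at 25.8, 40.1, 17.3 and 34.9 CPM, and RT-like cells at 22.7, 15.6, 4.14 and 7.52 CPM, where 1 to 9 UMIs were counted per library. Macrophage-like cells (152.8, 200.3, 62.9 and 162 CPM) and Leydig-like cells (129, 289, 49.3 and 232 CPM) were not separated from interstitial-like cells or from each other. *Hspa1b* followed a similar order, with 307, 165, 80.0 and 101 CPM in interstitial-like cells, 11.9, 16.4, 9.38 and 15.5 CPM in Sertoli-like cells and 5.97, 9.27, 5.52 and 8.24 CPM in germ-like cells. Per 100 UMIs of the interstitial marker list, germ-like cells held 1.1 to 3.17 UMIs of *Hspa1a* and interstitial-like cells 0.224 to 0.983. Whether the germ-like level came from germ cells or from carried-over RNA of other classes was not tested.

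**Figure D1:**
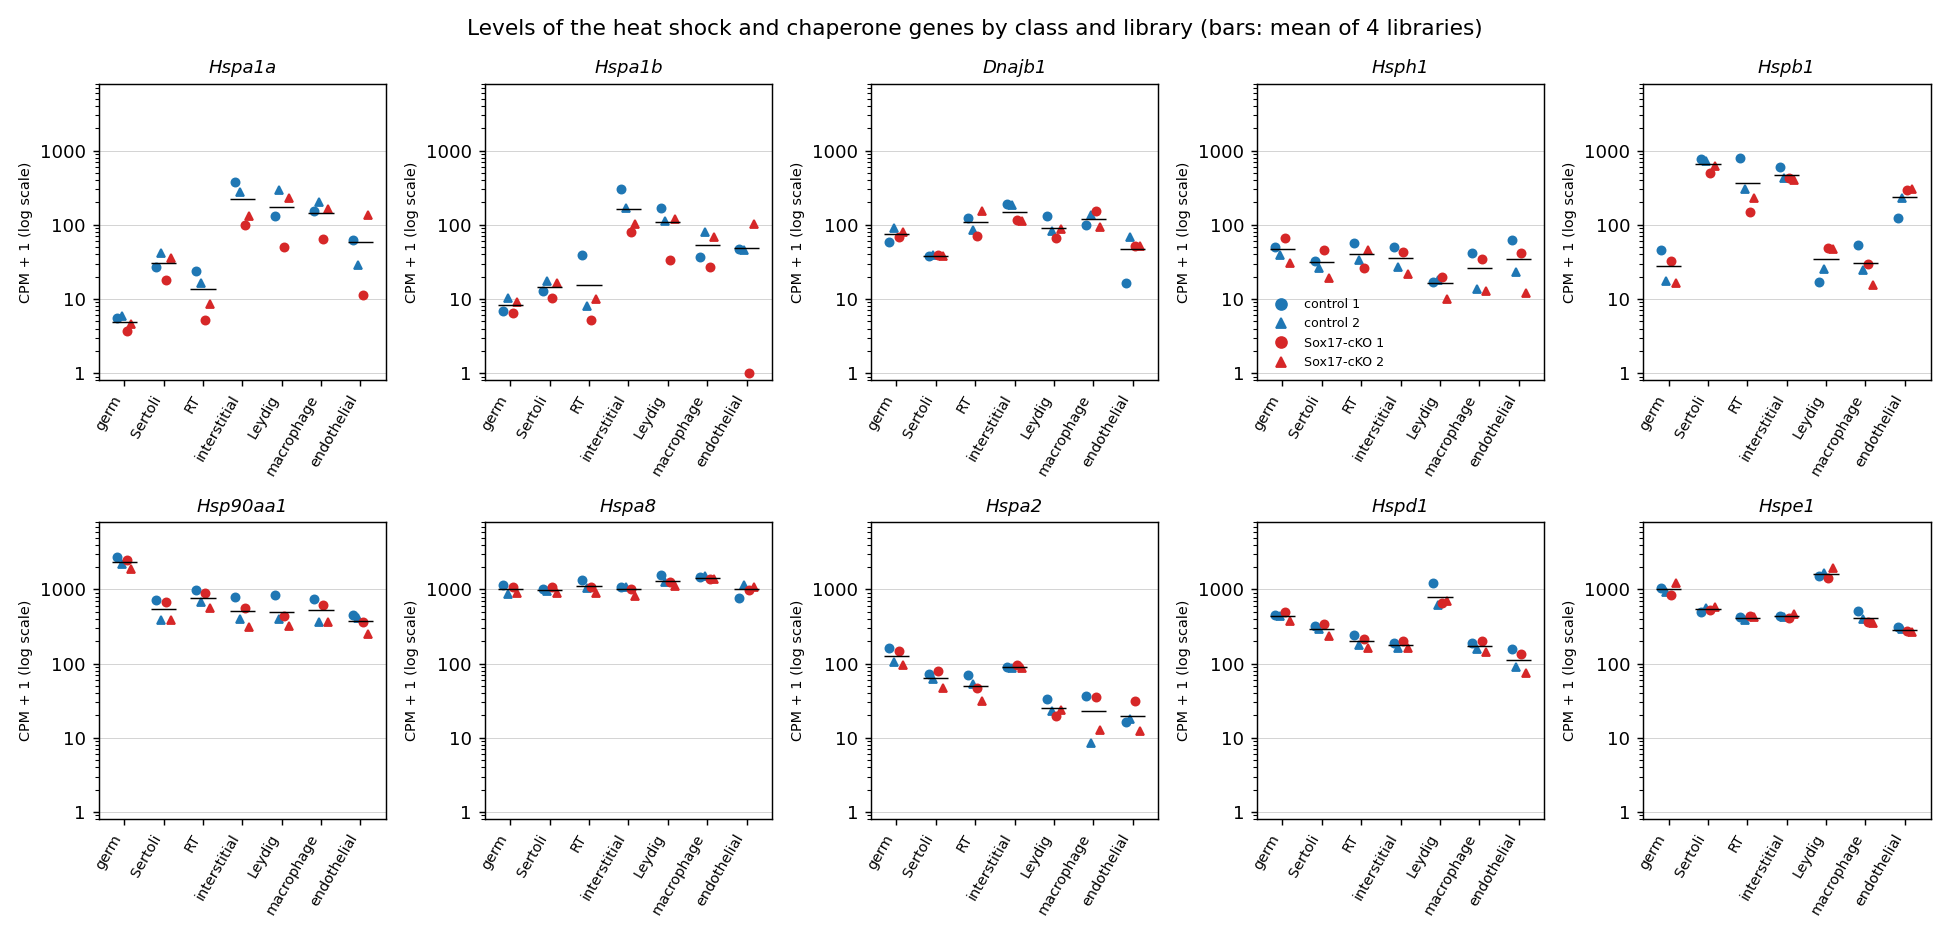
Levels of the 10 genes in 7 classes and 4 libraries (y axis, CPM + 1 on a log scale; x axis, class; blue, control; red, Sox17-cKO; circles, number 1; triangles, number 2; bars, mean of 4 libraries). Hspa1a and Hspa1b are lowest in germ-like cells, whereas Hsp90aa1 is highest there and Hspa8 varies little.

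*Dnajb1* also had its highest mean in interstitial-like cells, but its class means differed only 4.0-fold. It measured 192, 182, 116 and 111 CPM there, 37.1, 37.9, 38.2 and 36.7 CPM in Sertoli-like cells and 58.5, 88.6, 68.1 and 78.4 CPM in germ-like cells. Macrophage-like cells (99.9, 136, 152 and 92.9 CPM) and RT-like cells (121, 83.1, 70.3 and 155 CPM) overlapped with interstitial-like cells and exceeded them in 1 *Sox17*-cKO library each. The Sertoli-like level was the steadiest of any class, with an SD of 0.692 CPM. *Hsph1* was low everywhere, between 9.13 CPM in a Leydig-like and 66.4 CPM in a germ-like library, and neighbouring classes in the order of their means overlapped, although all 4 Leydig-like libraries lay below all germ-like ones. In these 2 co-chaperones, then, the order of the classes was not that of *Hspa1a*, to which *Dnajb1* showed a Pearson r of 0.309 and *Hsph1* of -0.51 over 28 class and library sums that share libraries and depth.

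Interstitial-like cells held 5 clusters, led by *Col1a1* and *Lum* (cluster 0), the myoid list (3), *Plac8* and *Dlk1* (5), the pericyte list (14) and the proliferation genes *Tk1* and *Pclaf* (18). *Hspa1a* was lower in *Sox17*-cKO than in control within both numbers in 5 of 5 clusters, and control and *Sox17*-cKO did not overlap in 4. In cluster 0 it measured 554 and 370.0 CPM in the controls and at most 157 CPM in the *Sox17*-cKO libraries, in the myoid cluster 134, 111, 56.8 and 85.0 CPM, and in cluster 5 207, 279, 76.2 and 149 CPM. In the pericyte cluster the libraries overlapped, at 170.0, 510, 64.6 and 276 CPM. Cluster 0 held most of the class in control 1 (593 of 1154 cells) and in *Sox17*-cKO 1 (505 of 899), and the myoid cluster was the largest in *Sox17*-cKO 2 (936 of 2514), which is why the values within clusters are given. *Hspa1b* was lower within both numbers in 4 of 5 clusters, and *Dnajb1* in 3 of 5.

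**Figure D2:**
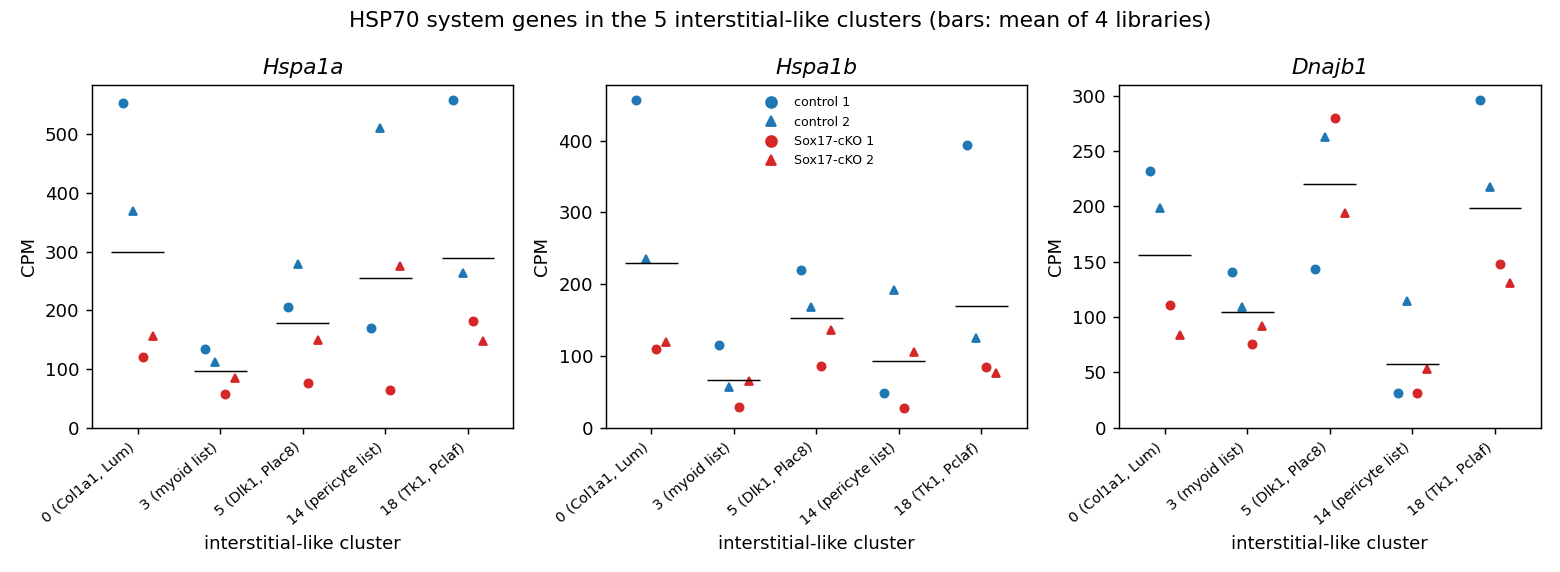
Hspa1a, Hspa1b and Dnajb1 in the 5 interstitial-like clusters (y axis, CPM; x axis, cluster with its leading genes or list; blue, control; red, Sox17-cKO; circles, number 1; triangles, number 2; bars, mean of 4 libraries). In cluster 0 both Sox17-cKO libraries lie below both controls for all 3 genes, while in the pericyte cluster the genotypes overlap.

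Over the whole interstitial-like class the fitted log2 fold change of *Sox17*-cKO against control was -1.57 (SE 0.27) for *Hspa1a*, -1.44 (SE 0.34) for *Hspa1b* and -0.79 (SE 0.20) for *Dnajb1*. The *Hspa1a* ratio was -1.94 on the log2 scale within number 1 and -1.09 within number 2, so its size differed between the numbers while its sign did not. For *Dnajb1* the numbers gave -0.73 and -0.72. Genes whose *Sox17*-cKO libraries both lay below both controls made up 3.89% of the 8667 genes of 10 CPM or more in this class, and 5 of the 10 members (*Hspa1a*, *Hspa1b*, *Dnajb1*, *Hspb1* and *Hspa8*) were among them, from which nothing is read since *Hspa1a* was known. By edgeR's quasi-likelihood test 0 of 13689 genes passed in this comparison (0%), DESeq2 called 1, and 57 were under 0.05 before adjustment. That is fewer than a calibrated test at 0.05 gives with no change, so this fit was conservative.

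The share of cells with a *Hspa1a* UMI was lower in *Sox17*-cKO as well. Cells of under 2000 UMIs were left out, and the others were thinned to 2000 UMIs. Of these interstitial-like cells 36.2% (exact 95% interval 33.5 to 39.1), 26.3% (24.6 to 28.0), 14.8% (12.5 to 17.3) and 15.6% (14.2 to 17.1) held a *Hspa1a* UMI. Unthinned, the shares were 51.2%, 47.0%, 30.1% and 31.7%, at median depths of 5083, 7851, 6040 and 6238 UMIs. Both *Sox17*-cKO intervals lay below both control intervals. In germ-like cells, at 7426 to 9008 UMIs, the thinned shares were 0.751%, 1.36%, 0.592% and 0.702%. The tenth of interstitial-like cells with the most *Hspa1a* UMIs held 49.8%, 62.8%, 63.7% and 69.3% of them, and up to 39 UMIs were counted in a single cell. Such intervals cover counting error only, since cells of a library are not replicates.

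*Hspa1a* was also lower in *Sox17*-cKO within both numbers in 6 of 7 classes, including Sertoli-like and macrophage-like cells whose ranges overlapped, and the exception was endothelial-like cells, at 8 to 26 cells a library. Across all 18 named clusters the count was 12, with 2 germ-like clusters in the other direction. The summed level of 19 immediate early genes in interstitial-like cells was 18410, 22310, 17780 and 19310 CPM, so that the genotypes overlapped, although 19 of 19 genes had a fitted value below 0 (median -0.21, against 0 for all genes; 0 called). In clusters 0 and 18, however, both *Sox17*-cKO libraries lay below both controls for this sum too, at 15560, 18420, 14530 and 13410 CPM in cluster 0 and 16980, 18730, 12490 and 13280 CPM in cluster 18, while the myoid cluster, where *Hspa1a* also differed, had 23080, 24540, 23290 and 22980 CPM. RT-like cells had the highest sum of these genes, 25120, 22660, 21310 and 20670 CPM, and yet a low *Hspa1a* level, and germ-like cells had 521 to 786 CPM. The classes were therefore not ordered alike by the immediate early genes and by *Hspa1a*. The median mitochondrial share of interstitial-like cells was 4.27%, 4.36%, 3.26% and 4.56%. Whether handling or genotype set the *Hspa1a* level was not tested.

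*Hspb1* had its highest means in Sertoli-like and interstitial-like cells, and RT-like cells overlapped with both interstitial-like and endothelial-like cells. It measured 772, 716, 506 and 613 CPM in Sertoli-like cells, 594, 433, 426 and 401 CPM in interstitial-like cells and 787, 299.5, 149 and 230.1 CPM in RT-like cells. Within Sertoli-like cells its level was highest in cluster 17, the 223 cells that scored highest for the SV list. This cluster held 1616 of 8544, 780 of 4290, 887 of 3721 and 1767 of 5326 *Hspb1* UMIs of the class. The level of *Hspb1* in it was 3871, 2522, 2888 and 3372 CPM. These levels were 4.27 to 8.02 times those of cluster 1 of the same library, and *Hspb1* was among the 10 leading genes of cluster 17 although it was kept out of the clustering. The SV cluster also had a higher sum of immediate early genes (8549 to 13000 CPM) than clusters 1 and 2 (718 to 3496 CPM). Whether those values bear on its *Hspb1* level was not tested.

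**Figure D3:**
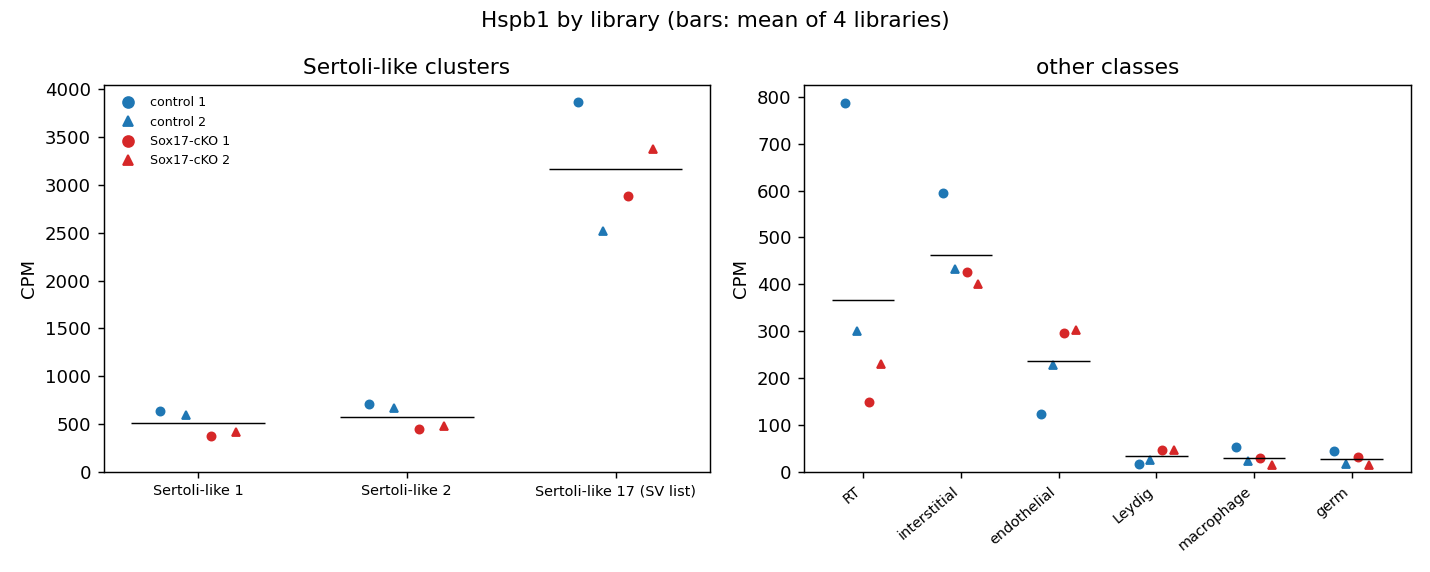
Hspb1 in the 3 Sertoli-like clusters (left) and in the other classes (right) by library (y axes, CPM; blue, control; red, Sox17-cKO; circles, number 1; triangles, number 2; bars, mean of 4 libraries). The SV cluster stands above the other Sertoli-like clusters in every library, and both Sox17-cKO libraries lie below both controls in Sertoli-like clusters 1 and 2.

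In the 2 Sertoli-like clusters outside the SV list, *Hspb1* was lower in *Sox17*-cKO without overlap: 638, 590.4, 379 and 420.4 CPM in cluster 1 and 713, 667, 446 and 477 CPM in cluster 2. In the SV cluster the genotypes overlapped. The median mitochondrial share of Sertoli-like cells also separated the genotypes, at 12.3%, 11.2%, 9.08% and 6.53%. Whether that share bears on the *Hspb1* level was not tested. Over all Sertoli-like cells the log2 fold change was -0.53 (SE 0.29; edgeR, adjusted p = 1.0), and without the SV cluster, a variant chosen once the values had been looked at, -0.72 (SE 0.288, adjusted p = 1.0). In RT-like cells *Hspb1* changed by -1.53 (SE 0.477) on the log2 scale, with an adjusted p of 0.543. It passed with the replicate block (-1.28, adjusted p = 1.3e-06) and when genes of low count were kept (-1.53, adjusted p = 0.00422). Without control 2 it was -2.06. The block left a single residual degree of freedom and called 134 genes higher and 141 lower of 6799. Within number 1 the log2 ratio was -2.40 and within number 2 -0.38, so the numbers differed in size. In control 1, 4 of the 36 RT-like cells held 59.6% of the 208 *Hspb1* UMIs, and 1 cell held 55. The main value of -1.53 rested on 33 to 86 cells a library and above all on control 1, without which it was -0.64. It was 0.17 when cells above 4500 genes were kept and clustered anew, which gave 494 RT-like cells at 567, 356, 682 and 358 CPM. In Leydig-like cells *Hspb1* was low and higher in *Sox17*-cKO, at 16.1, 24.6, 47.3 and 46.6 CPM, but control 1 held 2 UMIs and a single cell held 12 of the 23 UMIs of *Sox17*-cKO 1. It was higher likewise in endothelial-like cells, at 123, 228, 296 and 303 CPM. The germ-like level of 15.3 to 44.5 CPM held 3.7 to 7.14 *Hspb1* UMIs per 100 UMIs of the Sertoli marker list, against 3.55 to 5.34 in Sertoli-like cells themselves, and whether it came from germ cells or from carried-over Sertoli RNA was not tested.

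*Hsp90aa1* was the most abundant member in germ-like cells, at 2719, 2167, 2489 and 1856 CPM, and every other class stayed below 1000 CPM. RT-like cells came next, at 968, 665 and 890 CPM in the first 3 libraries and lower in *Sox17*-cKO 2, followed by Sertoli-like cells at 715, 389, 667 and 388 CPM and interstitial-like cells at 787, 397, 557 and 312 CPM. The number 1 libraries were higher than the number 2 libraries in both genotypes in 7 of 7 classes and 17 of 18 named clusters, while *Sox17*-cKO was lower within both numbers in 6 of 7 classes with the genotypes overlapping in all but endothelial-like cells. Germ marker UMIs in Sertoli-like cells moved the same way (627, 201, 816 and 328 CPM). Per 100 of those UMIs, Sertoli-like cells held 81.8 to 194 *Hsp90aa1* UMIs and germ-like cells 27.3 to 46.6. How much of the Sertoli-like level, or of its difference between the numbers, came from carried-over germ RNA was not tested. *Hsph1* was higher in number 1 in 15 of 18 clusters, and *Hspe1* higher in number 2 in 11 of 18, 6 of 6 germ-like clusters among them, so the members did not all differ between the numbers in one direction.

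*Hspa8* was the flattest member. Its class means ran from 982 CPM (SD 88.3) in Sertoli-like cells to 1436 CPM (SD 67.1) in macrophage-like cells, and germ-like cells, at 1155, 872, 1063 and 894 CPM, overlapped with Sertoli-like cells at 1020, 939, 1084 and 884 CPM. In interstitial-like cells it measured 1091, 1079, 1018 and 802 CPM, with both *Sox17*-cKO libraries below both controls by a small margin.

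*Hspa2* was a gene of late germ cells and, at a lower level, of myoid cells. Ordered by their marker lists, the germ-like clusters ran from undifferentiated spermatogonia (cluster 12) through differentiating spermatogonia (8 and 4) and preleptotene cells (7) to leptotene and zygotene cells (9 and 10), of which cluster 10 scored highest for the pachytene list. *Hspa2* stood at 19.3, 15.8, 24.4 and 8.55 CPM in cluster 12, at 126, 150.1, 165 and 136 CPM in cluster 9 and at 988, 495, 746 and 528 CPM in cluster 10. The cluster 12 levels rest on 63, 9, 41 and 8 UMIs, so ratios to them are uncertain in size. The last cluster was 30.5 to 61.7 times the first in the same library and 3.3 to 7.86 times the one before it, and the genotypes overlapped in each of these clusters. Over all germ-like cells this gave 161, 103 and 147 CPM in the first 3 libraries and a lower level in *Sox17*-cKO 2, a mean that hides the step. Outside the germ line the myoid cluster had 151, 175, 173 and 156 CPM, 2.51 to 4.02 times cluster 0, and Sertoli-like cells had 70.5, 60.2, 77.7 and 46.2 CPM.

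**Figure D4:**
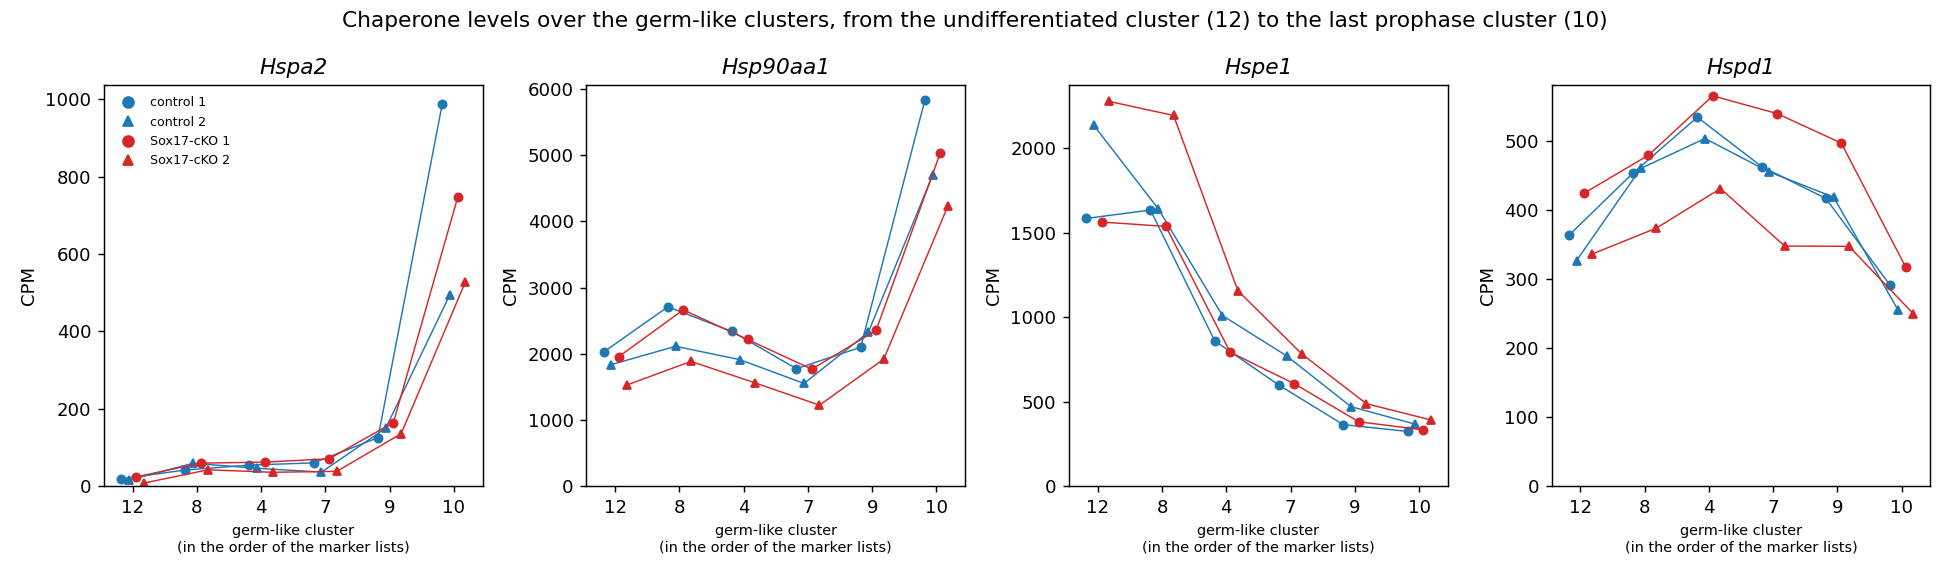
Hspa2, Hsp90aa1, Hspe1 and Hspd1 over the 6 germ-like clusters, from undifferentiated (12) to the last prophase cluster (10) (y axes, CPM; lines join the clusters of one library; blue, control; red, Sox17-cKO; circles, number 1; triangles, number 2). Hspa2 and Hsp90aa1 step up at cluster 10, whereas Hspe1 is highest in clusters 12 and 8.

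*Hsp90aa1* shared the step: it held 1530 to 2027 CPM in cluster 12, 1922 to 2355 CPM in cluster 9 and 5832, 4699, 5036 and 4240 CPM in cluster 10, 2.02 to 2.78 times cluster 9. *Dnajb1* had no such step: it was 45.9 to 73.8 CPM in cluster 12, 71.9 to 155 CPM in cluster 9 and 101 to 125 CPM in cluster 10. Both genes of the mitochondrial chaperonin were lower in cluster 10 than in cluster 12. *Hspe1* measured 1584, 2134, 1563 and 2276 CPM in cluster 12 and 325, 368, 334 and 393 CPM in cluster 10, a 4.68 to 5.8-fold difference within libraries. Its partner *Hspd1* differed only 1.25 to 1.35-fold between these clusters, from 327 to 425 CPM down to 250.3 to 318 CPM. *Hspd1* did not fall steadily: clusters 8, 4, 7 and 9 were above cluster 12 in each library, with 535, 504, 566 and 432 CPM in cluster 4. The ratio of *Hspe1* to *Hspd1* UMIs was 5.33 (SD 1.54) in cluster 12, 1.04 (SD 0.284) in cluster 9 and 1.29 (SD 0.251) in cluster 10.

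Across classes, both chaperonin genes were highest in Leydig-like cells, the steroid-producing cells, with 1530, 1652, 1432 and 1911 CPM of *Hspe1* and 1208, 606, 658 and 692 CPM of *Hspd1*. Germ-like cells followed in each library, at 1034, 918, 851 and 1222 CPM of *Hspe1* and 444, 442, 495 and 369 CPM of *Hspd1*. By cluster, however, *Hspe1* was higher in the undifferentiated cluster 12 than in Leydig-like cells of the same library. The lowest class was endothelial-like cells for both genes, at 269 to 308 CPM of *Hspe1* and 73.0 to 154 CPM of *Hspd1*. Neither gene separated the genotypes in the Sertoli-like, germ-like or interstitial-like class.

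The classes were then compared over libraries, with the library as a block. Of 10 members, 5 were higher in germ-like than in Sertoli-like cells, where 42.5% of all 13516 genes tested were higher, and 4 were lower, against 37.6% of all genes. With so many genes called, these shares do not set the members apart, and the sizes carry the comparison. The members were chosen with earlier results of these data known, so their p-values between classes are not those of a blind choice. The higher genes were *Hsp90aa1* (log2 fold change 1.82, SE 0.139, adjusted p = 1.3e-05), *Hspa2* (0.66), *Dnajb1* (0.63), *Hspe1* (0.55) and *Hsph1* (0.30). The lower ones were *Hspb1* (-5.03, SE 0.29, adjusted p = 4.5e-06), *Hspa1a* (-3.17, SE 0.16, a description since its level was known), *Hspa1b* (-1.20) and *Hspa8* (-0.31), and *Hspd1* did not pass (0.25, adjusted p = 0.056). The direction of *Hspa8* belongs to the scaling of the fit, since its mean CPM was 996 in germ-like and 982 in Sertoli-like cells and germ-like cells were higher in 2 of 4 libraries. *Hspd1* too stood higher by CPM than by the fit, with means of 437.5 CPM in germ-like and 295.9 CPM in Sertoli-like cells. For *Hspd1* germ-like cells were above Sertoli-like cells in 4 of 4 libraries without overlap. The class values of *Hspa2* and *Hspe1* do not hold for every germ-like cluster. By CPM, *Hspa2* was below Sertoli-like cells of the same library in clusters 12, 8, 4 and 7, and *Hspe1* in clusters 9 and 10. Of 11 alternatives, *Hsph1* lost its call in 8, among them each library left out in turn, and *Hspa8* in 4, among them without control 2 and without *Sox17*-cKO 1. *Hspe1* and *Hspa2* lost theirs under 10% mitochondrial UMIs, and *Dnajb1* with no upper limit on detected genes. Calls were also gained: with no integration 6 members were higher and 3 lower.

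Between interstitial-like and Sertoli-like cells 5 members were higher, where 38.1% of 13160 genes were, and 3 were lower, where 37.8% were. *Hspa1b* (3.61, SE 0.265), *Hspa1a* (2.91, SE 0.25) and *Dnajb1* (2.08, SE 0.139) were far above *Hspa2* (0.64) and *Hsph1* (0.32), with an adjusted p of 3.6e-07 for *Dnajb1* and the values of *Hspa1a* and *Hspa1b* given as a description. *Hspd1* (-0.61), *Hspb1* (-0.37) and *Hspe1* (-0.20) were lower, the last with an adjusted p of 0.0469, which stayed past the threshold with the members kept among the variable genes (0.0489) and under 10% mitochondrial UMIs (0.00594) and in no other alternative run. *Hsph1* lost its call in 5 of 11 alternatives, among them without control 1 and without *Sox17*-cKO 2, and *Hspb1* in 3, among them without control 2. The Sertoli-like level of *Hspb1* includes the SV cluster, at 2522 to 3871 CPM. The myoid cluster, at 573, 726, 643 and 684 CPM of *Hspb1*, was above Sertoli-like clusters 1 and 2 except in control 1. *Hspa8* (0.14) and *Hsp90aa1* (0.02) did not pass.

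No member passed the genotype test as fitted in Sertoli-like, germ-like or RT-like cells, although *Hspb1* in RT-like cells passed in some of the alternatives named above. In Sertoli-like cells 0 of 10 members passed, as did 0 of 12173 genes (0%; 98 genes at an unadjusted p under 0.05, 0 by DESeq2), with values from -0.53 for *Hspb1* to 0.03 for *Hsph1*. In germ-like cells 0 of 10 passed and 0 of 14096 genes (0%; 20 unadjusted, 0 by DESeq2), with values from -0.61 (SE 0.45) for *Hspa1a* to 0.07 for *Hsph1*. In RT-like cells 0 of the 8 members above the count filter passed, where 6 of 6799 genes did (0.0882%; 17 by DESeq2), and *Hspa1a* and *Hspa1b* were below it. The difference of the genotype change between germ-like and Sertoli-like cells passed for 0 of 10 members and 0 of 13516 genes (0%; 56 unadjusted, 0 by DESeq2). Apart from RT-like cells, these unadjusted counts are fewer than a calibrated test at 0.05 gives with no change. Those fits were thus conservative, and 0 calls there is no evidence of no change. Standard errors of the members were 0.25 to 0.49 in Sertoli-like and germ-like cells, so that changes several times this size can also miss the threshold with 2 libraries a genotype, and an exact permutation test of 2 against 2 cannot go below a two-sided p of 0.333.

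**Figure D5:**
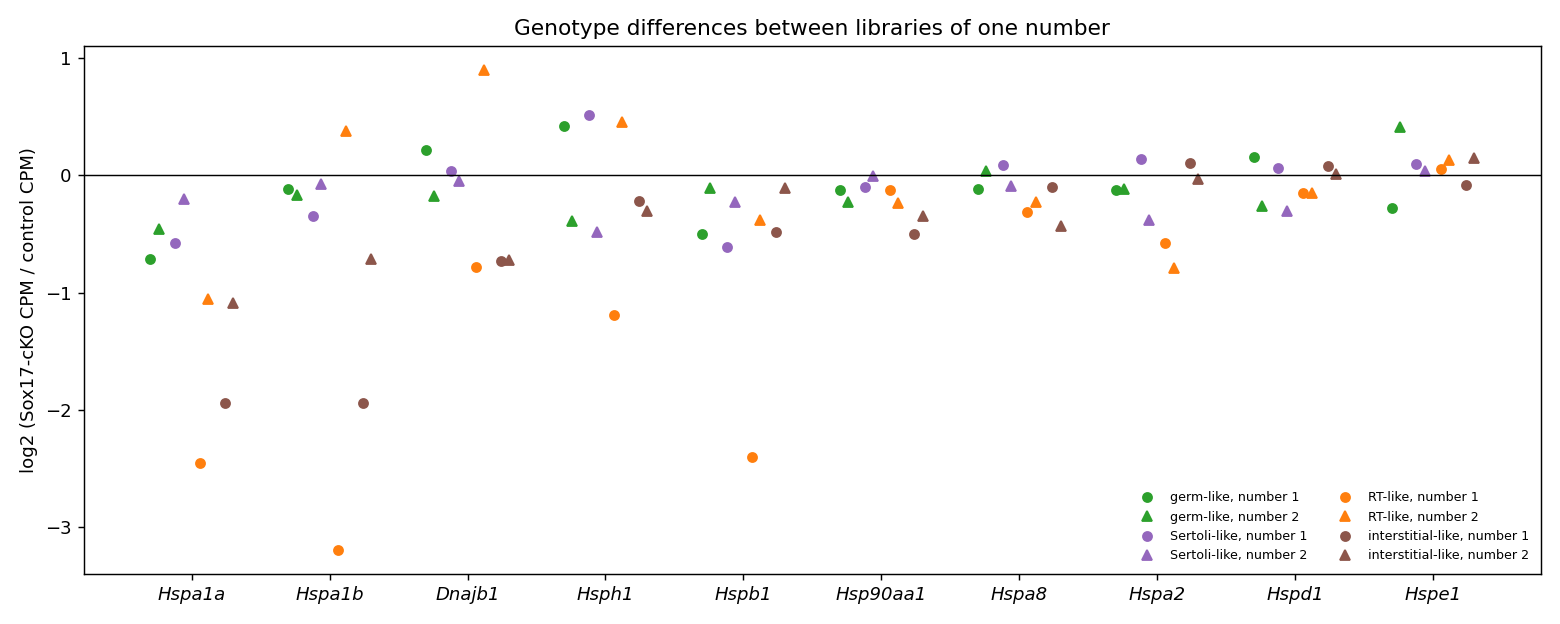
Log2 ratio of Sox17-cKO to control CPM for each member (x axis) within number 1 (circles) and number 2 (triangles) in germ-like (green), Sertoli-like (purple), RT-like (orange) and interstitial-like cells (brown). Hspa1a lies below 0 in all 8 comparisons, and Hspe1 and Hspd1 lie on both sides of 0.

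The rest of the chaperone system was read from 9 lists. By edgeR, 0 genes of any list passed in a genotype test. The counts that follow stand against 42.5% of all genes higher and 37.6% lower, and lists near those shares are not set apart. Between germ-like and Sertoli-like cells, 7 of 7 tested subunits of the cytosolic chaperonin, which folds actin and tubulin, rose (median log2 fold change 0.93, against 0.12 for all genes), and their summed level was 3239, 2968, 3175 and 3061 CPM in germ-like and 1223, 1207, 1422 and 1162 CPM in Sertoli-like cells. Of 6 tested genes of the germ cell chaperone list 4 rose. Among them were *Clgn*, the calmegin that guides sperm surface proteins (3.07, SE 0.35), and *Dnajb3* (2.40, SE 0.22), while *Hspa4l* gave 0.04. The 4 also include the heat shock factor *Hsf5*, which is counted again in the next list. *Clgn* is itself in the pachytene marker list. Of 3 tested heat shock factors 2 rose, *Hsf2* (0.81) and *Hsf5* (2.73), and *Hsf1* gave 0.26 with an adjusted p of 0.0551. Of the HSP70 and HSP110 relatives, 5 of 8 rose and 1 fell, with *Hspa5*, the HSP70 of the endoplasmic reticulum, at 0.55. HSP90 and its co-chaperones were split, with 3 higher and 4 lower of 11. *Hsp90ab1*, the constitutive partner of *Hsp90aa1*, gave -0.25 (adjusted p = 0.0584), a sign that belongs to the scaling of the fit. Its mean was 1960 CPM in germ-like and 1845 CPM in Sertoli-like cells. Of 17 J-domain proteins and exchange factors 8 rose and 5 fell, and of 16 genes of the response of the endoplasmic reticulum to stress 9 rose and 5 fell. Of 3 small heat shock proteins 1 rose and 2 fell, *Hspb8* (-5.35) and *Cryab* (-1.27). Of 19 immediate early genes 16 fell and 1 rose (median -2.41), with *Fos* at -2.86 and *Egr1* at -3.05.

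Between interstitial-like and Sertoli-like cells, where 38.1% of all genes were higher and 37.8% lower, 18 of 19 immediate early genes rose and 1 fell (median 3.53, against -0.02 for all genes), with *Fos* at 3.81, *Egr1* at 3.17 and *Jund* at 1.40. Of 5 small heat shock proteins 4 rose, led by *Hspb2* (7.57, SE 0.22) and *Cryab* (5.18, SE 0.21), both made in muscle. Sertoli-like cells held only 2 to 4 UMIs of *Hspb2* a library, so the size of its value is uncertain. The cytosolic chaperonin had 2 higher and 1 lower of 7, the HSP70 and HSP110 relatives 3 and 5 of 9, HSP90 and its co-chaperones 4 and 6 of 11, J-domain proteins and exchange factors 5 and 9 of 17, genes of the endoplasmic reticulum 5 and 6 of 16, germ cell chaperones 1 and 2 of 6, and heat shock factors 0 and 2 of 3. The median of the HSP70 and HSP110 relatives was -0.41, with *Hspa4* lower by a log2 fold change of -0.77 and *Hspa9* by -0.64, so a rise such as that of *Hspa1a* was not general among them, although *Hspa12b* was higher by 7.12.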

How the data were processed

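The deposited UMI counts per gene and barcode were made by the authors with Cell Ranger and STAR against mm10 (GRCm38), with Cell Ranger 6.0.2 in the headers of the number 1 libraries and 6.1.2 in those of number 2. The labels name kit v3 and the methods v3.1. Cells with 1000 to 4500 detected genes were kept; the study's limit on mitochondrial reads was not applied, and an alternative kept cells under 10%. Libraries were integrated and clustered in Seurat 5.3.0 (2000 variable genes without the 10 members, 20 principal components, resolution 0.4). Clusters were named from marker lists by a rule set after the data were seen. Counts were summed per class and library and tested with edgeR 4.0.16 (quasi-likelihood, Benjamini-Hochberg over all genes, threshold 0.05), with the library as a block between classes, and tests were tried on simulated data. DESeq2 1.42.0, other filters, the replicate block and each library left out were alternatives. Interstitial-like genotype values of members carry no p.

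Members and lists were chosen with earlier results of these data known. The genes named are the 10 members, from each of 9 lists the 3 of highest mean CPM and any past the threshold in a genotype test, the 5 genes most like *Hspa1a* and the 5 most like *Hspa2* (Pearson r over 28 class and library sums, mean of 10 CPM or more), and *Sox17*. *Hspa12b*, outside this rule, was named after its value was seen. Total retained UMIs per library ran from 33649565 to 42011650. Intervals cover counting error only. Nothing says whether the 2 libraries of a genotype came from separate litters, so p-values measure the spread between these libraries.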

Additional observations from a re-analysis of the deposited data

Results flagged for a closer look

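*Hspb1* differed between control and *Sox17*-cKO in opposite directions in different cell types, with both *Sox17*-cKO libraries on one side of both controls in each. Such separation was common in the small classes: 15.4% of genes were lower in this way in RT-like, 3.13% in Sertoli-like and 3.89% in interstitial-like cells, and 15.3% were higher in Leydig-like and 16.0% in endothelial-like cells. The log2 ratio of the mean CPM was -1.52 in RT-like, -0.41 in Sertoli-like and -0.31 in interstitial-like cells, and 1.21 in Leydig-like and 0.77 in endothelial-like cells. The interstitial-like direction did not hold in each of its 5 clusters. *Hspb1* was lower in *Sox17*-cKO within both numbers in 2 of them, higher in 1 and mixed in 2. The fitted RT-like value became 0.17 with no upper limit on detected genes, and 1 cell held 12 of the 23 Leydig-like UMIs of *Sox17*-cKO 1. The difference between these classes was not tested, and the Leydig-like and endothelial-like values rest on 13 to 107 and 8 to 26 cells a library.

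*Dnajb1* was also counted in barcodes with under 1000 detected genes, which no comparison used, at 36.9, 35.8, 47.0 and 37.9 CPM. The *Sox17*-cKO mean there was 42.5 CPM, above the controls, from 92 to 235 UMIs a library. Only members higher in *Sox17*-cKO were flagged in such barcodes. *Hspa1b* (17.1, 18.3, 9.21 and 13.4 CPM) and *Hspb1* (248.6, 305.6, 187.5 and 207.4 CPM) were lower there without overlap. The share of all genes separated in these barcodes was not counted.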

How the results depend on the processing

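In RT-like cells the count of members past the threshold went from 0 to 1 with no filter on low counts, with the replicate block and without control replicate 2, in each case *Hspb1*; leaving out each library in turn gave 0 to 1. *Hspb1* there was -1.53 on the log2 scale, and -1.28 with the replicate block (adjusted p = 1.3e-06), which left a single residual degree of freedom. It was -2.06 without control replicate 2 and 0.17 with no upper limit on detected genes. In interstitial-like cells the count of members was 2 with no filter, where 6 of 20831 genes were called higher and 8 lower. By DESeq2 it was 1, the only gene called of 20831, against 0 in the main fit. Nothing is read from these counts, since *Hspa1a* was known and members carry no p there. *Hsp90aa1* in interstitial-like cells ran from -0.96 without *Sox17*-cKO replicate 1 to 0.03 (0.027) without control replicate 1. Members past the threshold between germ-like and Sertoli-like cells numbered 9, and 5 under 10% mitochondrial UMIs (7 to 8 without single libraries); between interstitial-like and Sertoli-like cells 8, and 5 with no upper limit (6 to 7 without single libraries). The causes were not tested. All genes called in RT-like cells numbered 6, and 46 with no upper limit, 99 with no filter, 275 with the replicate block, 16 under 10% mitochondrial UMIs, 17 by DESeq2 and 11 to 106 without single libraries. The labels share a replicate number but no stated origin, so the block is given as an alternative only; it changed no other member call. Of 700 alternative levels, 25 moved by over 1 SD. The 700 include means without a single library, which with 4 libraries cannot move that far, so the share that moved is understated. When cells were thinned to 1000 UMIs, 194 shares of cells left their 95% interval at 2000 UMIs and 86 did not. RT-like, Leydig-like and endothelial-like values rest on 8 to 107 cells a library.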

Other observations

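Over the 28 class and library sums, which share libraries and depth, the genes whose CPM was most like that of *Hspa1a* among 9742 genes were *Dhrs3* (Pearson r 0.895), *Blvrb* (0.885), *Hspa1b* (0.879), *Emp3* (0.841) and *Cyp27a1* (0.826). For *Hspa2* they were *Tmem38b* (0.879), *Tnrc6a* (0.846), *Stra8* (0.802), *Zfp507* (0.802) and *Tdp2* (0.792). *Hsp90aa1* ranked 120 for *Hspa2* with r 0.684.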
